A study of Homo sapiens with 4 samples.

Results

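Dividing cells switch on a shared group of genes late in the cell cycle, whose products condense the chromosomes, build the spindle, attach it to the kinetochores, hold anaphase back until every chromosome is attached, and then cut the cell apart. In the liver such transcripts are scarce in resting hepatocytes and abundant in regenerating tissue and in hepatocellular carcinoma. Much of this group is held silent in resting cells by the DREAM complex and activated in G2 by MYBL2 and FOXM1, through a promoter element called the cell cycle homology region and the CCAAT boxes that bind NF-Y.

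The 48 genes described here are spindle, kinetochore and other mitotic genes, listed by name. Of these, 47 had a probe carrying exactly 1 gene symbol in the platform annotation and 1, CENPA, did not and has no value, so the set is 47 of 18377 named genes. Where a gene had more than 1 probe, which was so for BIRC5, the probe with the highest mean was taken. The cells were Huh7, an established human hepatocellular carcinoma line, with no allele or agent named in the labels. They were divided by flow cytometry into ALDH-positive and ALDH-negative fractions (ALDH, aldehyde dehydrogenase) and into CD133-positive and CD133-negative fractions (CD133, the product of PROM1). The series frames the positive fractions as cancer stem cells. RNA of each of the 4 fractions was measured on 1 microarray, so no difference below has a replicate check or a p-value. Values are log2 expression from RMA (robust multi-array averaging), and a difference is the positive minus the negative fraction of the same sort.

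Correlations between arrays over all probes ran from 0.982 to 0.989. All 13 measured hepatic markers were at or above the floor in both sorts, where the floor is 4.98, the median of all values. The pan-leukocyte gene PTPRC was below it on all 4 arrays, between 2.45 and 2.64. PROM1 was 12.8-fold higher in CD133-positive than in CD133-negative cells. In the ALDH sort PROM1 ran the other way, at 7.11 in the ALDH-positive and 8.39 in the ALDH-negative fraction. ALDH1A1 differed by 0.04 in the ALDH sort, so that transcript does not check the ALDH labels.

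The promoter stretches below show what many of these genes share outside their expression values. They are the 120 bases before the annotated transcript start, 5′ to 3′ on the gene's strand, from RefSeq (GRCh38.p14). CCNB2 and CCNB1, the B-type cyclins, are shown because their values parted in the ALDH sort. CDCA8, PLK1 and NDC80 stand for the passenger complex, the mitotic kinases and the outer kinetochore, and KIF2B for the member with the largest difference as measured, before any floor; all were chosen after their values were seen. Capitals mark TTTGAA, the usual core of the cell cycle homology region, its variant TTTAAA, and CCAAT, each on either strand (reverse forms TTCAAA and ATTGG), and adjoining matches can run together. The stretches lie at chr15:59105026-59105145 for CCNB2, chr5:69167030-69167149 for CCNB1, chr1:37692396-37692515 for CDCA8, chr16:23678769-23678888 for PLK1, chr18:2571437-2571556 for NDC80 and chr17:53822807-53822926 for KIF2B, all on the plus strand.
CCNB2: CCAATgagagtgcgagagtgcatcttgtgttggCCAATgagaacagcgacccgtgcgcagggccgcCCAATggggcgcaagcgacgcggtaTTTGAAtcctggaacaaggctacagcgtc
CCNB1: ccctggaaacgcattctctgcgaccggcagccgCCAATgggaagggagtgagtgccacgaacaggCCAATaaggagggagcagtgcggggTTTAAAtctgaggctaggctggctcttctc
CDCA8: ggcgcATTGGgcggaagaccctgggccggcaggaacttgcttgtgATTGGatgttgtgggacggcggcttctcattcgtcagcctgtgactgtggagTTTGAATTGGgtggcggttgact
PLK1: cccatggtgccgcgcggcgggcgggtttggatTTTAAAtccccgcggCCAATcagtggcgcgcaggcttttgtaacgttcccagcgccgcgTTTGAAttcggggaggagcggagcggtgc
NDC80: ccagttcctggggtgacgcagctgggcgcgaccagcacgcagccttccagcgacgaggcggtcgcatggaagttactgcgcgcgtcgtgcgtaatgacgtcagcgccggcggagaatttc
KIF2B: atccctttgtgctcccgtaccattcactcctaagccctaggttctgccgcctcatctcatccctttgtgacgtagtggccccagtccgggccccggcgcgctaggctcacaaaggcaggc

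CCNB2 carried TTTGAA with its first base 29 bases before the start and CCAAT at 120, 87 and 54 bases before it. CCNB1 carried TTTAAA at 30 bases and CCAAT at 87 and 55 bases before the start, so both cyclins have a like arrangement with a different core. In CDCA8 the TTTGAA, at 23 bases before the start, overlaps an ATTGG. NDC80 had none of the 3 motifs whole in the stretch, and its TTCAAA begins 3 bases before the start and runs past it. KIF2B had none in its whole window of 250 bases before to 50 after the start.

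Of the 47 measured members, 41 matched a promoter window in the RefSeq table by symbol (AURKA, BIRC5, FOXM1, TPX2, TTK and UBE2C did not). TTTGAA on either strand was in a window of 29 of the 41, or 70.7%, against 15.8% of 15843 protein-coding genes and 18.2% of all 27305 genes in the table. CCAAT was in 32 of the 41, or 78%, against 42.1% of protein-coding genes, and both motifs together were in 24, or 58.5%, against 8.17%. The variant TTTAAA was in 29.3% of members and 12.8% of protein-coding genes, TTCGAA in 7.32% and 2.11%, and CTTGAA in 7.32% and 12%. Matches of letters are not binding sites, and the members were listed as mitotic genes, a class known for these elements.

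**Figure D1:**
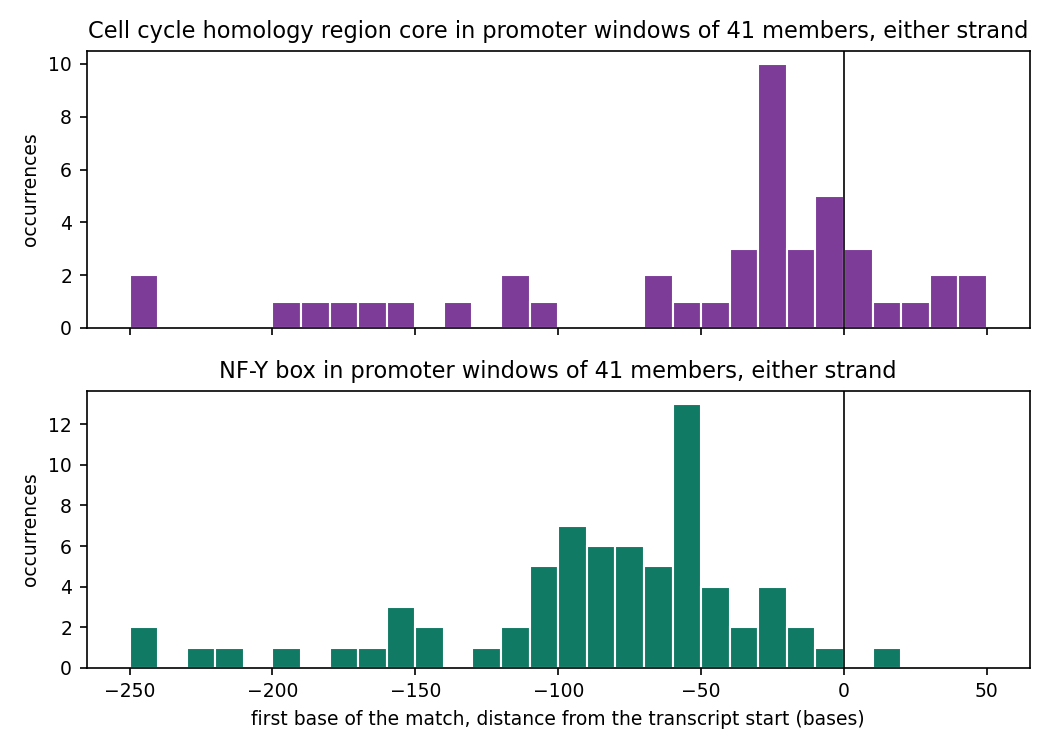
Number of matches (vertical axis) by distance of the first base from the transcript start in bases (horizontal axis) over the 53 promoter windows of 41 members, in bins of 10 bases; windows of alternative starts of a gene can overlap and count a match again. The median position was -28 for the cell cycle homology region core (45 matches, upper panel) and -75 for the NF-Y box (71 matches, lower panel).

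Nearly every mitotic gene had more RNA in the ALDH-positive than in the ALDH-negative fraction. Of the 46 members whose brighter array in this sort reached the floor, 44 were higher in ALDH-positive cells, against 48.5% of 11879 genes that reached it, and 2 were lower, against 51.5%. The median difference over all 47 members was 0.41, which is 1.33-fold, and that over all genes was 0.03. At 1.5-fold, 13 members were higher and 0 lower, where 4.15% of all genes passed that threshold upwards and 6.6% downwards. SPC25, 1 of the 13, was below the floor in ALDH-negative cells, and set against the floor it was 1.26-fold higher, short of 1.5-fold. At 2-fold only KIF2B was left, against 0.278% of all genes upwards and 1.3% downwards; its value in ALDH-negative cells was below the floor, and set against the floor it was 1.74-fold, short of 2-fold. At a smaller threshold of 0.32 on the log2 scale, 33 of the 46 were higher, against 15.7% of all genes, and 0 lower, against 19.4%. AURKB (0.59) and CCNA2 (0.59) lay just inside 1.5-fold, and CDC25B (0.56), HMMR (0.54) and KIF18A (0.54) just outside. Fewer dividing cells and less of these RNAs per dividing cell cannot be told apart in RNA of whole fractions.

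In the CD133 sort the same genes had a median difference of -0.00. Of 45 members that reached the floor there, 23 were higher and 22 lower in CD133-positive cells, against 42.9% of 11591 genes higher and 57.1% lower. That split followed the scaling: 29 were higher and 16 lower after a second quantile normalization or loess, and 17 higher and 28 lower with each array centred on its median. The ALDH counts held at 44 or 45 higher under the same 3 scalings. At 1.5-fold, 1 member was higher (KIF2B) and 0 lower, against 2.74% and 1.89% of all genes. At 2-fold there was none in either direction, against 0.716% and 0.164%. At a log2 difference of 0.32, 3 members were higher (KIF2B, AURKA and AURKB) and 3 lower (MKI67, KIF11 and KIF15), against 9.68% and 12.1%. The value of KIF2B in CD133-negative cells was below the floor, and set against the floor its difference was 0.31, short of both thresholds. The middle 50% of members at the floor lay between -0.09 and 0.15, and that of all genes at the floor between -0.20 and 0.12. Both sorts are therefore given side by side for each member below.

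**Figure D2:**
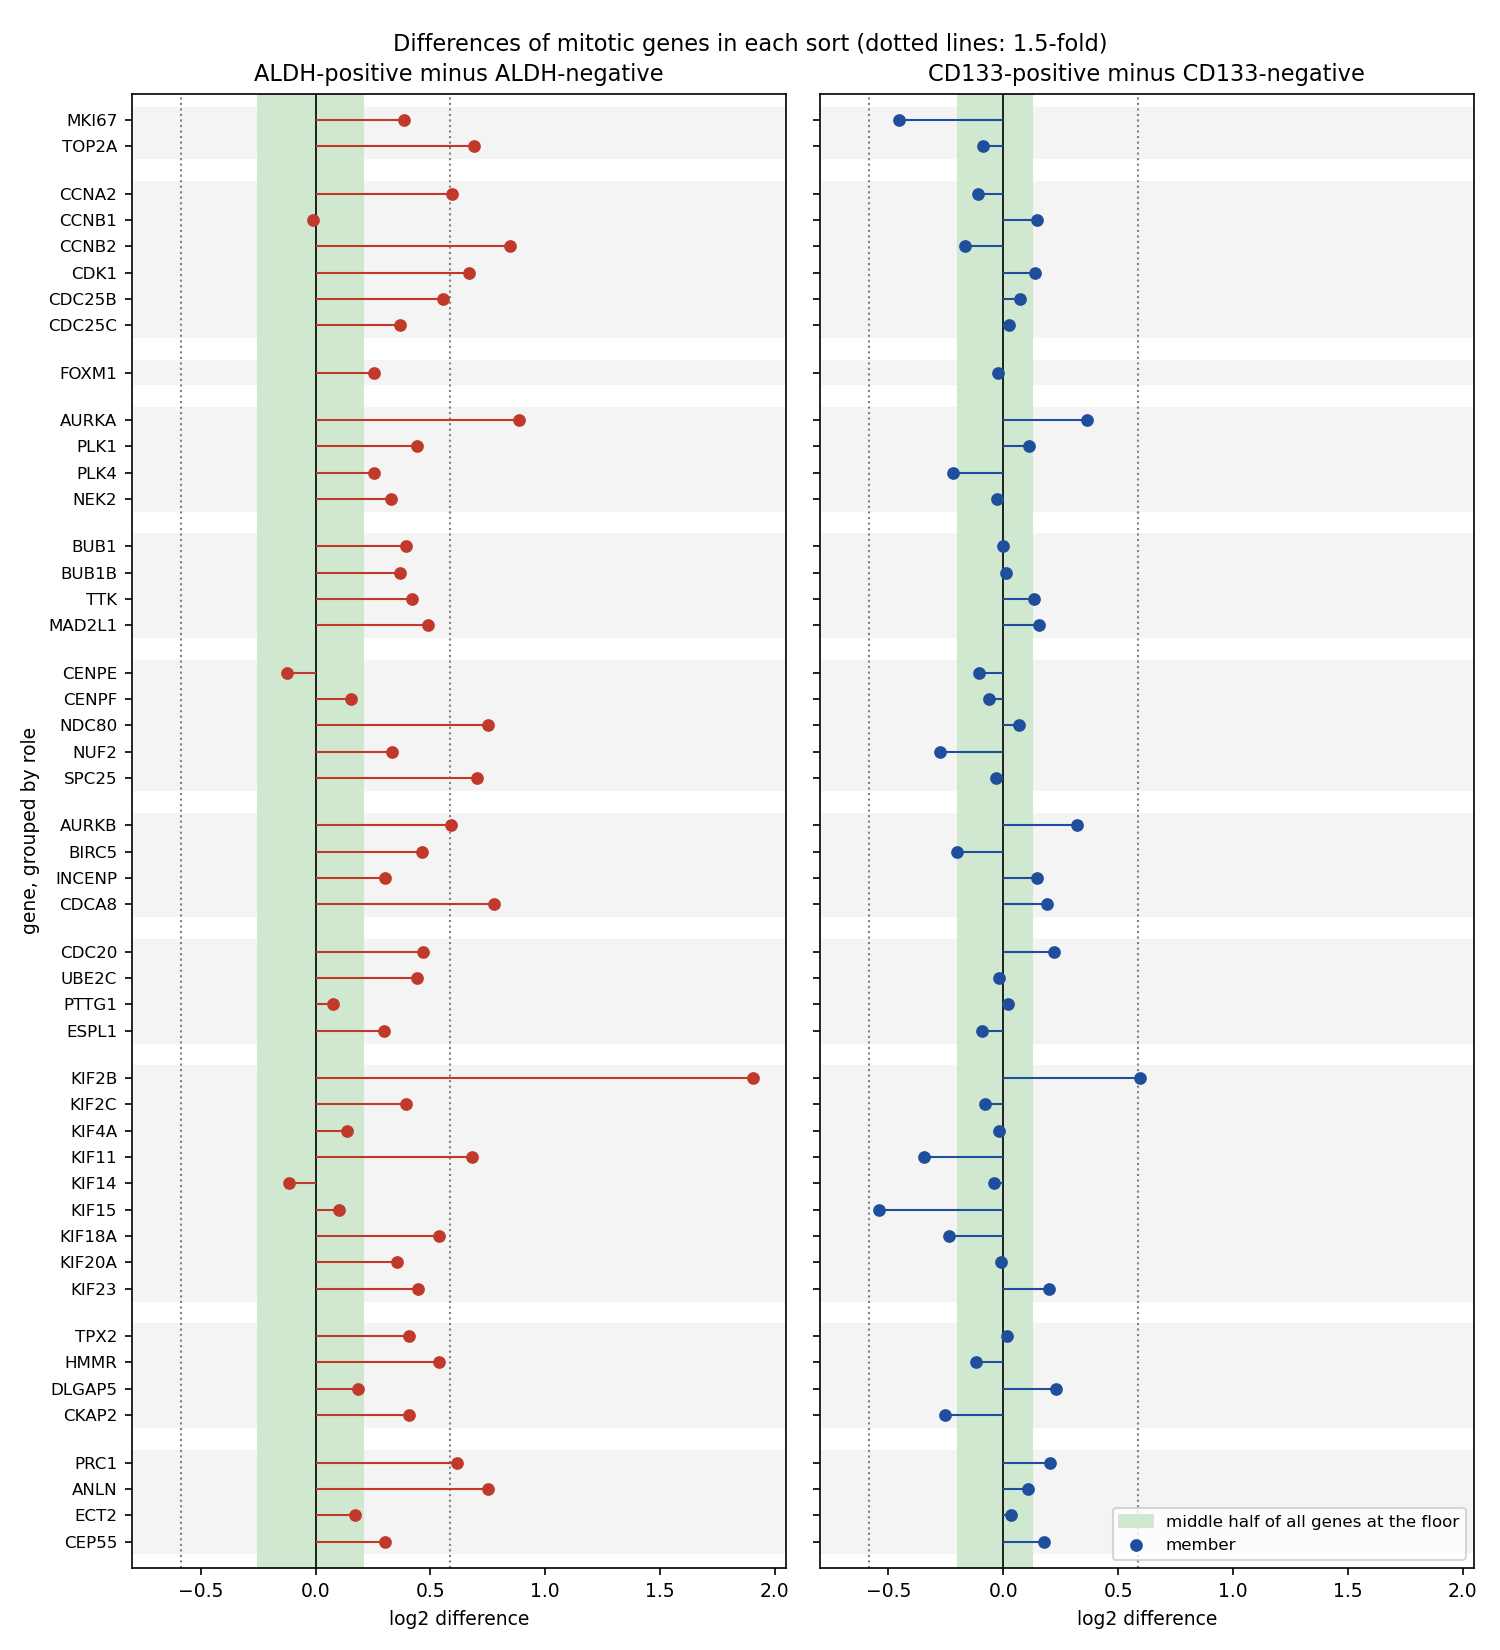
Log2 differences (horizontal axis) of the 47 measured members (rows, grouped by role) in the ALDH sort on the left and in the CD133 sort on the right; the green band is the middle 50% of all genes at the floor and the dotted lines are 1.5-fold. In the ALDH sort 44 of 47 members lie right of 0, while in the CD133 sort members lie on both sides.

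The proliferation antigen MKI67, which coats mitotic chromosomes, was at 7.53 in the ALDH-positive and 7.15 in the ALDH-negative fraction, and at 7.08 in the CD133-positive and 7.54 in the CD133-negative fraction. It was thus higher in the ALDH-positive fraction by 0.39 and lower in the CD133-positive fraction, with a difference of -0.45. TOP2A, the topoisomerase that untangles sister chromatids, was at 8.51 in the ALDH-positive and 7.82 in the ALDH-negative fraction, a difference of 0.69. In the CD133 sort it was at 8.21 in the CD133-positive and 8.30 in the CD133-negative fraction.

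The cyclins and CDK1, the kinase that drives entry into mitosis, were higher in ALDH-positive cells in all but 1 case. CCNB2 was at 7.25 in the ALDH-positive and 6.40 in the ALDH-negative fraction, a difference of 0.85 that ranked 88 of 11879 genes, and at 7.25 in the CD133-positive and 7.42 in the CD133-negative fraction. CCNB1 was at 8.78 in the ALDH-positive and 8.79 in the ALDH-negative fraction, and at 9.22 in the CD133-positive and 9.08 in the CD133-negative fraction. CCNB1 and CCNB2, whose proteins both activate CDK1, therefore parted: only CCNB2 was lowest in the ALDH-negative fraction, and the CCNB1 difference of -0.01 became 0.03 after a second quantile normalization. CDK1 was at 6.33 in the ALDH-positive and 5.66 in the ALDH-negative fraction, and at 6.88 in the CD133-positive and 6.74 in the CD133-negative fraction. CCNA2, the cyclin of S and G2 phase, was at 8.55 in the ALDH-positive and 7.95 in the ALDH-negative fraction, and at 8.61 in the CD133-positive and 8.72 in the CD133-negative fraction. The phosphatases that release CDK1 from inhibition differed by 0.56 (CDC25B) and 0.37 (CDC25C) in the ALDH sort and by 0.07 and 0.03 in the CD133 sort. FOXM1, which activates many of these genes in G2, differed by 0.25 and -0.02 in the same order of sorts.

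Among the kinases of centrosomes and mitotic entry, AURKA, which matures the centrosome and activates PLK1, had the largest difference of any member but KIF2B. It was at 8.01 in the ALDH-positive and 7.12 in the ALDH-negative fraction, which is 1.85-fold, and at 8.11 in the CD133-positive and 7.74 in the CD133-negative fraction, which is 1.29-fold. AURKA was the member other than KIF2B with the largest difference in the CD133-positive direction as well. PLK1, a kinase with tasks from centrosome to cytokinesis, differed by 0.44 in the ALDH sort and 0.11 in the CD133 sort. NEK2, which parts the centrosomes, differed by 0.33 and -0.03. PLK4, the kinase that starts centriole duplication, was at 5.50 in the ALDH-positive and 5.25 in the ALDH-negative fraction, and at 5.68 in the CD133-positive and 5.90 in the CD133-negative fraction.

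The 4 spindle checkpoint genes lay close together. Their differences ran from 0.37 to 0.49 in the ALDH sort and from -0.00 to 0.15 in the CD133 sort, and none reached 1.5-fold. BUB1 (0.39), BUB1B (0.37) and TTK (0.42), kinases or kinase-like proteins that load the checkpoint onto unattached kinetochores, were lowest in ALDH-negative cells. MAD2L1, the protein that binds and blocks CDC20, was at 6.71 in the ALDH-positive and 6.23 in the ALDH-negative fraction, and at 7.53 in the CD133-positive and 7.38 in the CD133-negative fraction. Both CD133-sort arrays were above both ALDH-sort arrays for MAD2L1, and the gap between the pair means, 0.98, exceeded its difference within either sort.

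The kinetochore genes varied more. NDC80, NUF2 and SPC25 encode subunits of the complex that grips microtubule ends. NDC80 was at 6.76 in the ALDH-positive and 6.01 in the ALDH-negative fraction, and at 6.65 in the CD133-positive and 6.59 in the CD133-negative fraction. SPC25 was at 5.32 in the ALDH-positive and 4.61 in the ALDH-negative fraction, the second of these below the floor, and its difference of 0.71 became 0.33 with the floor in place of the lower value. NUF2 differed by 0.33 in the ALDH sort and by -0.27 in the CD133 sort. SPC24, a subunit of the same complex outside the members, differed by 0.61 and 0.07 (named after its values were seen). Whether the subunits keep 1 ratio was not tested. CENPF, a large protein of the outer kinetochore, was at 6.73 in the ALDH-positive and 6.58 in the ALDH-negative fraction, and at 5.91 in the CD133-positive and 5.97 in the CD133-negative fraction. For CENPF the order of the sorts was the reverse of that for MAD2L1. The kinetochore motor CENPE lay below the floor on all 4 arrays, at 4.53 in the ALDH-positive and 4.66 in the ALDH-negative fraction, and at 4.09 in the CD133-positive and 4.19 in the CD133-negative fraction, and was left out of the counts at the floor.

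The 4 genes of the chromosomal passenger complex, which corrects faulty attachments, were all higher in ALDH-positive cells. CDCA8, the subunit borealin, was at 6.69 in the ALDH-positive and 5.92 in the ALDH-negative fraction, and at 6.93 in the CD133-positive and 6.74 in the CD133-negative fraction. The catalytic kinase AURKB was at 8.86 in the ALDH-positive and 8.26 in the ALDH-negative fraction, and at 8.54 in the CD133-positive and 8.21 in the CD133-negative fraction, so both positive fractions were above both negative ones. The scaffold INCENP differed by 0.30 and 0.15 in the ALDH and CD133 sorts. BIRC5, the survivin subunit, differed by 0.46 and -0.20; its other probe lay below the floor on all arrays and gave 0.22 and 0.16.

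Of the partners and targets of the anaphase-promoting complex, the ubiquitin ligase that ends mitosis, its activator CDC20 was at 8.20 in the ALDH-positive and 7.74 in the ALDH-negative fraction, and at 8.02 in the CD133-positive and 7.80 in the CD133-negative fraction. UBE2C, its ubiquitin-conjugating enzyme, differed by 0.44 and -0.02 in the ALDH and CD133 sorts, and ESPL1, the separase that cleaves cohesin, by 0.30 and -0.09. PTTG1, the securin that holds separase inactive, spanned only 0.23 over the 4 arrays, with 8.77 in ALDH-positive, 8.70 in ALDH-negative, 8.57 in the CD133-positive and 8.54 in the CD133-negative fraction. PTTG1 has near-identical copies in the genome that can share probe signal, as has KIF4A.

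**Figure D3:**
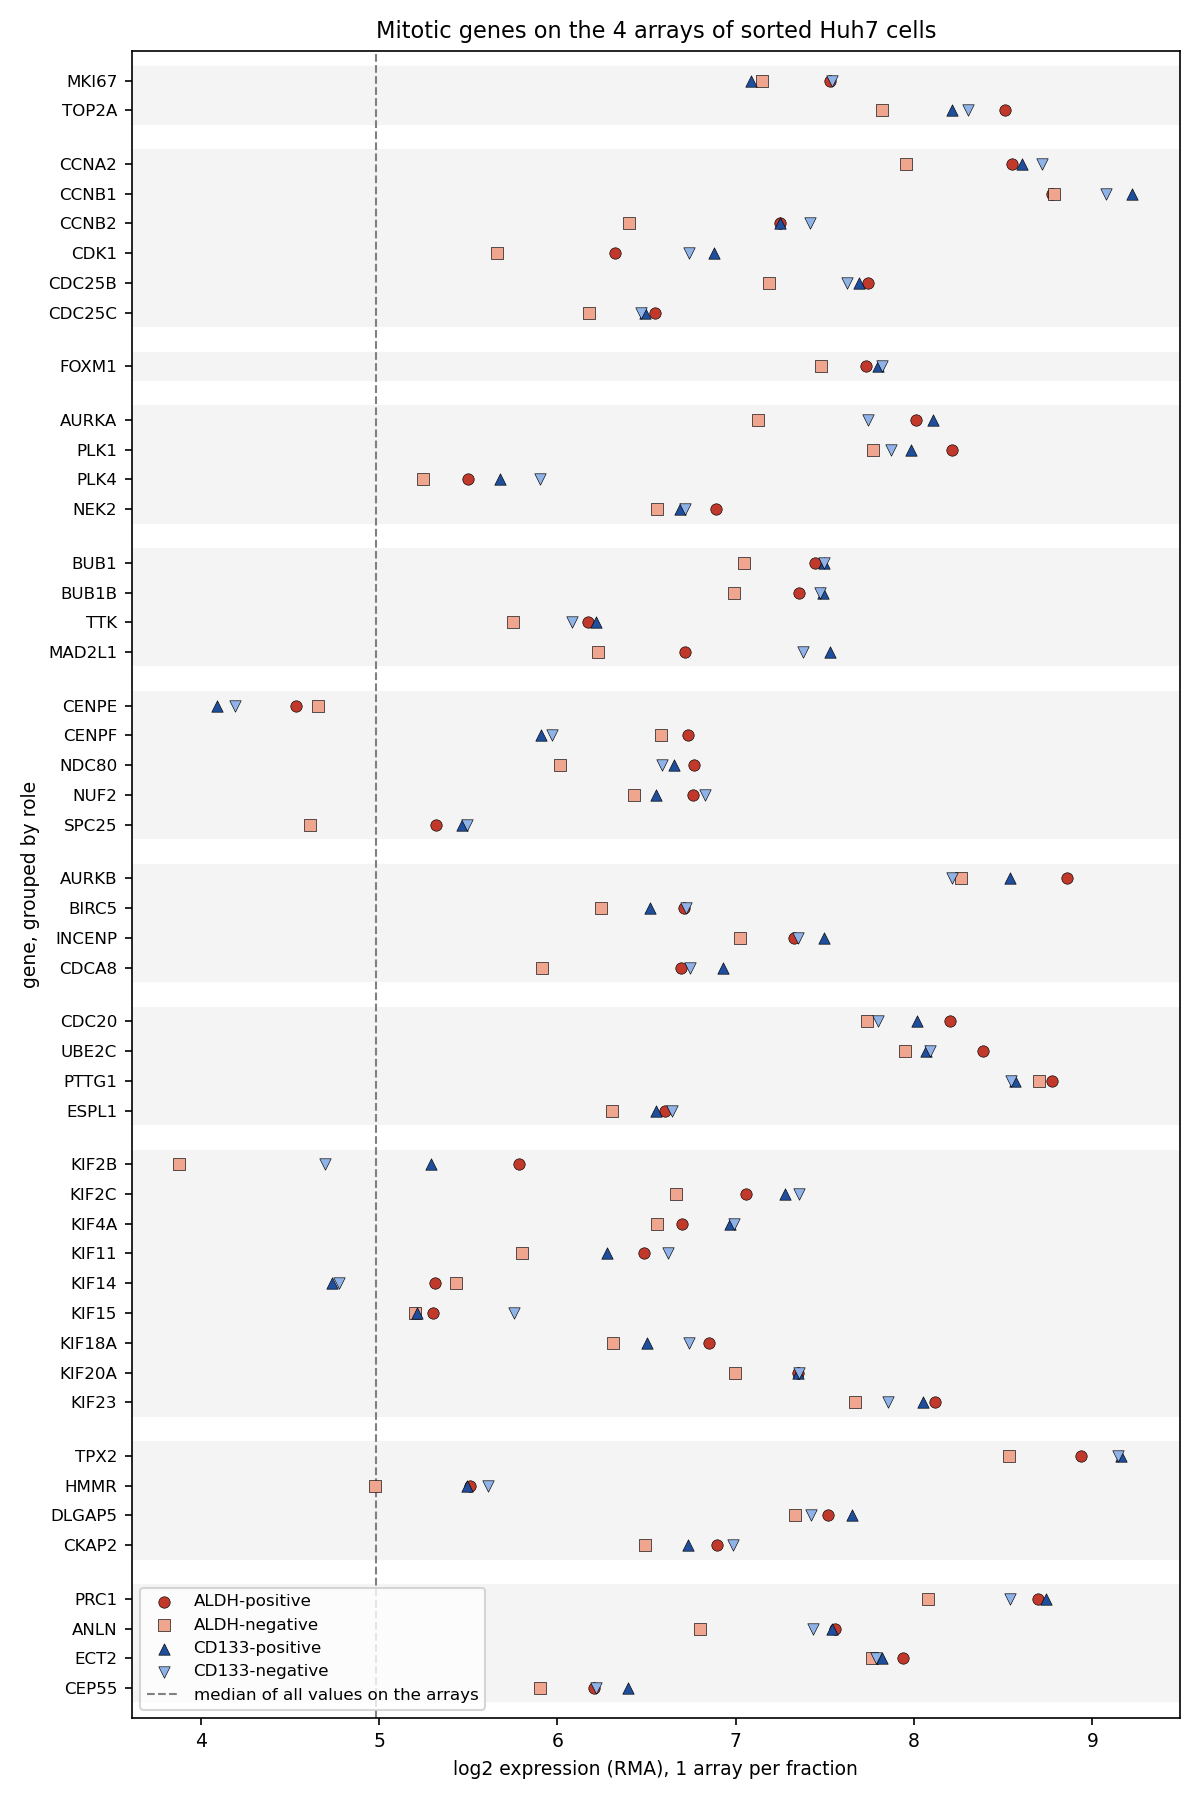
Log2 expression (horizontal axis) of the 47 members (rows, grouped by role) on each of the 4 arrays, 1 symbol per array; the dashed line is the floor of 4.98. The ALDH-negative square is leftmost in 40 of the 46 members that reach the floor on any array.

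The 9 kinesin motors ranged widely in both sorts. KIF2B, a microtubule-depolymerising kinesin of the same subfamily as KIF2C, was at 5.78 in the ALDH-positive and 3.88 in the ALDH-negative fraction, and at 5.29 in the CD133-positive and 4.70 in the CD133-negative fraction. Its difference of 1.90 in the ALDH sort ranked 1 of 11879 genes, but both negative fractions lay below the floor. The KIF2B level in ALDH-positive cells was 1.74-fold the floor, which is a median of values and not a limit of detection. With the floor in place its differences, 0.80 in the ALDH sort and 0.31 in the CD133 sort, were smaller than those of AURKA. KIF2C, which depolymerises microtubules at centromeres, differed by 0.39 in the ALDH sort and -0.08 in the CD133 sort. KIF11, the motor that pushes spindle poles apart, was at 6.48 in the ALDH-positive and 5.80 in the ALDH-negative fraction, and at 6.28 in the CD133-positive and 6.62 in the CD133-negative fraction. KIF15, which can take over part of that task, was at 5.30 in the ALDH-positive and 5.20 in the ALDH-negative fraction, and at 5.21 in the CD133-positive and 5.76 in the CD133-negative fraction. Its CD133 difference of -0.54 was the lowest of any member and short of 1.5-fold, but passed it, at -0.61, with each array centred on its median.

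KIF18A, which damps chromosome movements, differed by 0.54 in the ALDH sort and -0.24 in the CD133 sort. The motors of the central spindle, KIF23 (0.45 and 0.20) and KIF20A (0.36 and -0.01), were higher in ALDH-positive cells, and KIF4A differed by 0.14 and -0.02. KIF14, a motor of cytokinesis, was at 5.31 in the ALDH-positive and 5.43 in the ALDH-negative fraction, and at 4.74 in the CD133-positive and 4.78 in the CD133-negative fraction. With CCNB1 and CENPE it was 1 of the 3 members not higher in the ALDH-positive fraction, and it was the only member at the floor that was highest in ALDH-negative cells.

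The spindle assembly factor TPX2, which activates AURKA on microtubules, was at 8.94 in the ALDH-positive and 8.53 in the ALDH-negative fraction, and at 9.16 in the CD133-positive and 9.14 in the CD133-negative fraction. HMMR differed by 0.54 and -0.12 in the ALDH and CD133 sorts, CKAP2 by 0.41 and -0.25, and DLGAP5, which stabilises kinetochore fibres, by 0.19 and 0.23. All 4 were lowest in ALDH-negative cells. Of these, DLGAP5 alone had a difference in the CD133 sort as large as in the ALDH sort.

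All 4 genes of cytokinesis were higher in both positive fractions, except that the CD133 difference of ECT2 became -0.03 with centred arrays. ANLN, the scaffold of the contractile ring, was at 7.55 in the ALDH-positive and 6.80 in the ALDH-negative fraction, and at 7.54 in the CD133-positive and 7.43 in the CD133-negative fraction. PRC1, which bundles the microtubules of the central spindle, was at 8.69 in the ALDH-positive and 8.08 in the ALDH-negative fraction, and at 8.74 in the CD133-positive and 8.54 in the CD133-negative fraction. CEP55, which guides the final cut, differed by 0.30 and 0.18, and ECT2, the RhoA activator that sets the cleavage plane, by 0.17 and 0.03.

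Over the 4 arrays, the ALDH-negative fraction stood apart. It was the lowest of the 4 arrays for 40 of 46 members, against 29.3% of 12177 genes that reached the floor on any array. The exceptions were MKI67, CENPF and KIF14, lowest in CD133-positive cells, AURKB and PTTG1, lowest in CD133-negative cells, and CCNB1, lowest in ALDH-positive cells. The other 3 fractions shared the highest place: CD133-negative cells were highest for 17 members (35.3% of all genes), ALDH-positive cells for 16 (23.2%) and CD133-positive cells for 12 (17.3%). Between sorts, the mean of the CD133-sort arrays was at least 1.5-fold above that of the ALDH-sort arrays for MAD2L1 and CDK1, 2 of 46 members against 3.68% of genes. It was at least 1.5-fold below for CENPF and KIF14, again 2 members, against 1.36%. A gap between sorts and a gap between days, cultures or batches of arrays cannot be told apart here.

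Member by member the sorts were only loosely alike. Over 45 members at the floor in both sorts, Pearson's r between the ALDH and CD133 differences was 0.42 and Spearman's rho 0.20, and without KIF2B r was 0.18 and rho 0.15. Over 11293 genes at the floor in both sorts r was -0.12 and rho 0.02. These are correlations across genes of the same 4 arrays, given as a description. Of the 46 members, 22 were higher in ALDH-positive and lower in CD133-positive cells, against 26.5% of genes, and 22 were higher in both positive fractions, against 22.1%. The ALDH difference exceeded the CD133 difference for 43 of 46 members, against 52.9% of genes.

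**Figure D4:**
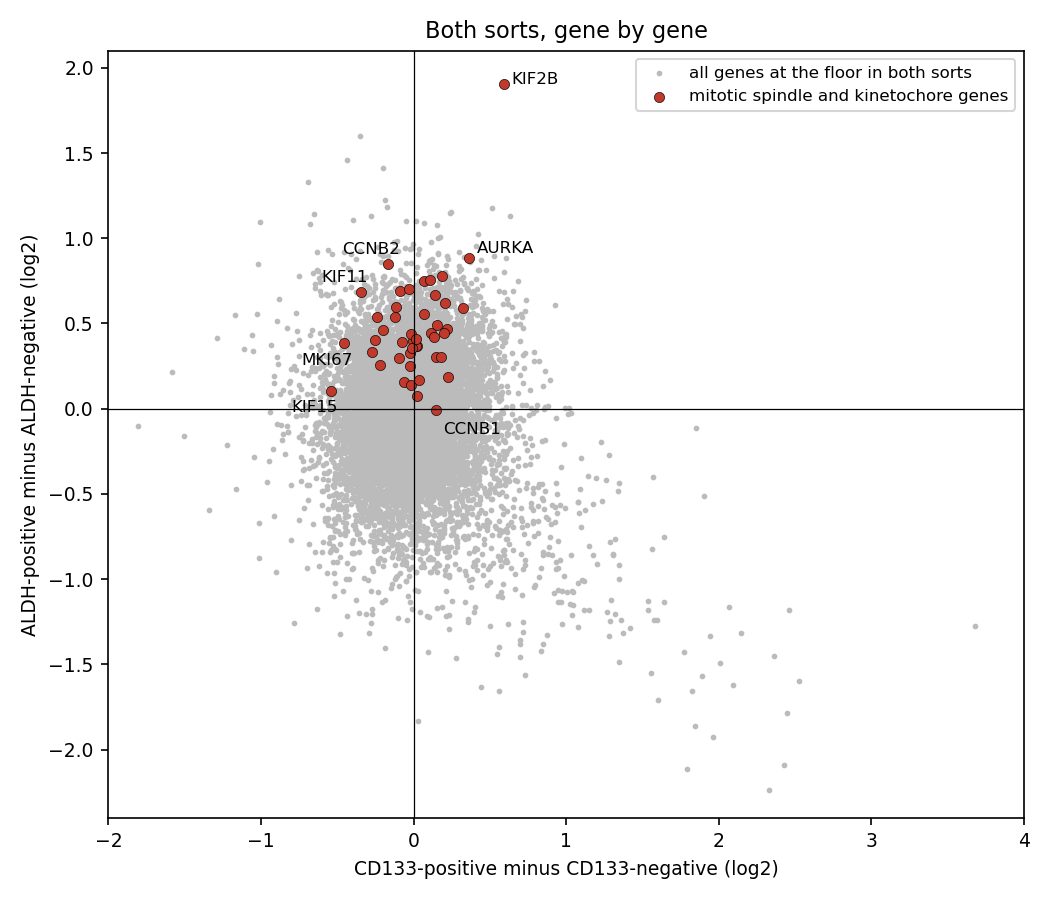
CD133 difference (horizontal axis, log2) against ALDH difference (vertical axis, log2) for 11293 genes at the floor in both sorts (grey) and 45 members (red). The members form a cloud above 0 in the ALDH direction and around 0 in the CD133 direction, with KIF2B apart at 0.59 and 1.90.

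Other cell division lists were set beside the members, with none of the members in them. In the ALDH sort, 38 of 41 DNA replication genes at the floor were higher in ALDH-positive cells, against 48.5% of all genes. At least 1.5-fold higher were 9, against 4.15% of all genes, and the list median was 0.36. RRM2, the ribonucleotide reductase subunit, was at 6.80 in the ALDH-positive and 5.57 in the ALDH-negative fraction. In the CD133 sort, 36 of 42 replication genes were lower in CD133-positive cells, against 57.1% of all genes at the floor. The list median was -0.17, where the mitotic genes had a median of -0.00. After loess 14 of 42 were higher and the list median was -0.11, and with centred arrays 2 of 41 were higher. GINS2, of the replicative helicase, differed most there, at 7.05 in the CD133-positive and 7.67 in the CD133-negative fraction. Whether the replication and mitotic lists differ was not tested.

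Kinetochore and centromere genes outside the members followed the members' direction in the ALDH sort with a smaller median. Of 29 at the floor, 23 were higher in ALDH-positive cells, 4 of them at least 1.5-fold, against 48.5% and 4.15% of all genes. The median of the 33 measured was 0.23. CENPN, which binds centromeric nucleosomes, was at 7.55 in the ALDH-positive and 6.64 in the ALDH-negative fraction. MIS12, of the complex that joins the inner and outer kinetochore, was at 5.99 in the ALDH-positive and 6.39 in the ALDH-negative fraction. In the CD133 sort 23 of 31 were lower in CD133-positive cells, against 57.1% of all genes at the floor, and the median was -0.17. After loess 21 were lower and the median was -0.10. CENPC, a foundation of the kinetochore, was at 4.68 in the CD133-positive fraction, below the floor, and at 5.40 in the CD133-negative fraction. Set against the floor its difference was -0.42, smaller in size than that of DSN1, of the complex that holds MIS12 (-0.57, named after its values were seen).

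Other spindle, centrosome and midbody genes were higher in ALDH-positive cells in 21 of 24 cases, against 48.5% of all genes at the floor. Their median was 0.27. FAM83D, a spindle protein, was at 8.91 in the ALDH-positive and 8.01 in the ALDH-negative fraction. SASS6, of the centriole cartwheel, was at 4.50 in the ALDH-positive fraction, below the floor, and at 5.15 in the ALDH-negative fraction, and set against the floor its difference was -0.16. The medians in the ALDH sort were 0.17 for condensin and cohesin subunits (11 of 17 higher, 13 after quantile normalization or loess) and 0.09 for subunits and regulators of the anaphase-promoting complex (10 of 16 higher, 12 after either). Kinesins outside the members, many of which carry cargo in interphase, had a median of 0.03. Of 23 at the floor 12 were higher, near the 48.5% of all genes. With centred arrays 7 of 22 were higher and the median was -0.02. KIFC1, a mitotic motor among them, differed by 0.81. KIF22 and KIF2A, which also act in mitosis, differed by 0.04 and -0.50 (named after their values were seen). In the CD133 sort the list medians were -0.07 for the spindle list and -0.11 for condensin and cohesin. They were -0.00 for the anaphase-promoting complex and 0.11 for other kinesins. After loess these medians were -0.02, -0.04, 0.06 and 0.14 in the same order.

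**Figure D5:**
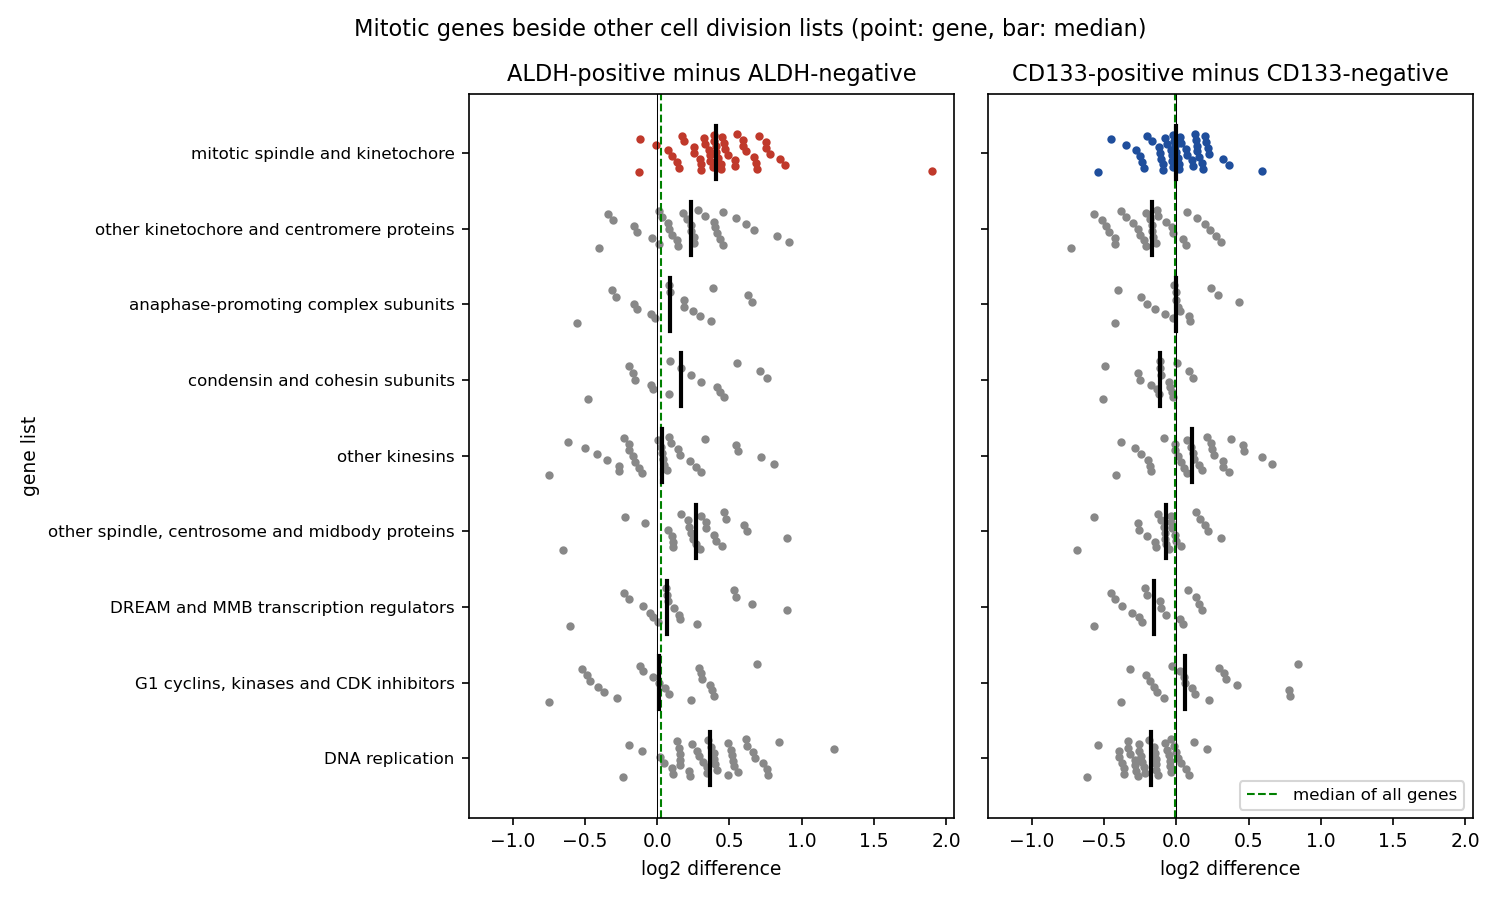
Log2 differences (horizontal axis) of single genes (points) and list medians (black bars) for the members and 8 other lists (rows), ALDH sort on the left and CD133 sort on the right; the dashed line is the median of all genes. In the ALDH sort the members (0.41) and the DNA replication genes (0.36) have the highest medians of the 9 lists shown.

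The members' differences were also set beside their promoter motifs. The 29 members with TTTGAA in a window had a median ALDH difference of 0.44 and the 12 without it 0.39. Some of those without TTTGAA carried another form, such as TTTAAA in CCNB1, TTCGAA in BUB1 and CTTGAA in CCNA2. The groups therefore do not stand for members with and without the cell cycle homology region. For CCAAT the medians were 0.42 in 32 members with it and 0.39 in 9 without. In the CD133 sort the medians were 0.01 with TTTGAA and -0.01 without it, and 0.01 with CCAAT and -0.08 without it. These are descriptions of small groups, with no test.

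Among markers of other cell types, 4 of 11 measured leukocyte genes reached the floor in the ALDH sort. The mean log2 level of the 11 was 4.87 in the ALDH-positive and 4.59 in the ALDH-negative fraction, with LYZ, the gene of lysozyme, at 7.77 in the ALDH-positive and 6.44 in the ALDH-negative fraction. CD68, a macrophage marker, ran opposite to LYZ, with 7.10 in the ALDH-positive and 7.87 in the ALDH-negative fraction. Of 10 fibroblast and stellate markers 5 reached the floor, and their mean level was 4.65 in the ALDH-positive and 4.51 in the ALDH-negative fraction. PDGFRA, a growth factor receptor of such cells, was at 5.56 in the ALDH-positive fraction and, below the floor, at 4.78 in the ALDH-negative fraction. COL1A1, the 1 of the 5 that was lower in ALDH-positive cells, was at 6.33 in the ALDH-positive and 6.46 in the ALDH-negative fraction. Of 8 endothelial markers 3 reached the floor, and their mean level was 4.15 in the ALDH-positive and 4.20 in the ALDH-negative fraction. PECAM1, an endothelial adhesion protein, was at 4.54, below the floor, in the ALDH-positive fraction and at 5.47 in the ALDH-negative fraction. CLDN5, the 1 of the 3 that was higher in ALDH-positive cells, was at 5.95 in the ALDH-positive and 5.43 in the ALDH-negative fraction. All 4 fractions were sorted from the Huh7 line, so these are values of genes named for other cell types, not a measure of such cells. Their relation to the differences of the mitotic genes was not tested. The 13 hepatic markers had a median difference of -0.09 in the ALDH sort and of -0.38 in the CD133 sort.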

How the data were processed

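RNA of 4 sorted Huh7 fractions was measured, 1 array each; extraction was with Trizol and biotin was the label, per the labels' protocols. The authors deposited log2 expression values from RMA, per the submitters' processing notes; their range, 0.556 to 13.5, is that of a log2 scale. Software version, build and later filtering are not given in the sources used here. RMA makes the arrays' distributions alike, which hides any change that most genes share, and it compresses differences of dim probes.

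Of 28869 probes, 19310 had 1 symbol in the platform annotation, 1752 several and 7807 were not listed; the highest-mean probe was kept for each of 18377 genes. Negative was subtracted from positive within each sort. Genes were counted at 1.5-fold where the brighter array reached the floor. No test was made, since each group holds 1 array; whether fractions came from separate cultures is not stated. Counting was run on simulated data with large shifts in bright genes and little noise, which checks the code and not the counts given here. The members, lists and rules were chosen with earlier results of these data known. Any member could be named; of other lists, the genes with the largest difference per sort and direction. Single other genes (PROM1, ALDH1A1, PTPRC) were named as checks. DSN1, SPC24, KIF22, KIF2A and the printed promoters were chosen after values were seen. Promoter windows were searched for exact matches. Python 3.11.15, pandas 2.3.3 and statsmodels 0.14.6 were used. Alternatives were other fold thresholds, floors, probe means, 3 normalizations and 2 settings added later.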

Additional observations from a re-analysis of the deposited data

Results flagged for a closer look

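MKI67 and KIF11 differed by more than 0.32 on the log2 scale in opposite directions in the ALDH and CD133 sorts. MKI67 was higher in ALDH-positive cells by 0.39 and had a difference of -0.45 in the CD133 sort, so the effects differed by 0.84. KIF11 was higher in ALDH-positive cells by 0.68 and had a difference of -0.34 in the CD133 sort, so the effects differed by 1.03. With 1 array per fraction the difference between sorts was not tested for either gene.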

How the results depend on the processing

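No paired analysis was possible because each group holds 1 array and the labels carry no replicate numbers. The ALDH count of 13 members at 1.5-fold became 1 at 2-fold and 33 at a log2 difference of 0.32; by construction these move with the threshold. The single CD133 member at 1.5-fold, KIF2B, became 0 at 2-fold, with the floor at the 75th percentile, after a second quantile normalization, after centring each array on its median, after loess within each sort, with the floor in place of values below it and with KIF2B left out (these last 2 added after seeing the data), and 3 at 0.32. The 0 members at 1.5-fold lower in the CD133 sort became 3 at 0.32 and 1 (KIF15) after centring. The 2 members lower in ALDH-positive cells became 1 with the higher floor, after quantile normalization and after loess. The causes were not tested. No other count of members moved by over 1.5 times and no median of the members by 0.1 or more. Counts of other lists did move. Genes higher in CD133-positive cells were 14 after loess and 2 with centred arrays for DNA replication, against 6. After loess they were 11 for the spindle list, against 6, and 6 for condensin and cohesin, against 3. For the anaphase-promoting complex they were 11 after loess, against 7. Among single members, BIRC5 moved with the mean over probes (0.34 in the ALDH sort), KIF2B and CENPE with loess, and KIF2B, CENPE and SPC25 with the raised floor. The number of arrays limits every value.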

Other observations

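In a further list, of G1 cyclins, kinases and their inhibitors, CDKN1A, the p53-induced inhibitor p21, was at 6.14 in the ALDH-positive and 6.88 in the ALDH-negative fraction, and at 6.42 in the CD133-positive and 5.64 in the CD133-negative fraction. CCNG2, a cyclin linked to cell cycle arrest, was at 7.27 in the CD133-positive and 6.43 in the CD133-negative fraction, and at 6.73 in the ALDH-positive and 7.25 in the ALDH-negative fraction. CDKN2D, an inhibitor of CDK4 and CDK6, was at 7.76 in the ALDH-positive and 7.07 in the ALDH-negative fraction. CDC25A, a phosphatase that drives the cycle forward, was at 6.53 in the ALDH-positive and 6.16 in the ALDH-negative fraction, and at 7.05 in the CD133-positive and 7.43 in the CD133-negative fraction. The list mixes genes that drive the cycle with genes that stop it, so its median describes neither kind. That median was 0.01 in the ALDH sort and 0.06 in the CD133 sort. Of 20 genes at the floor, 10 were higher in ALDH-positive and 12 in CD133-positive cells (8 and 9 with centred arrays). The shares of all genes at the floor were 48.5% and 42.9%.

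Among 18 DREAM and MYB-MuvB transcription regulators, 12 were higher in ALDH-positive cells, against 48.5% of genes at the floor. The list median there was 0.07 (0.01 with centred arrays). In the CD133 sort 12 were lower in CD133-positive cells, against 57.1% of genes at the floor, and the list median was -0.16. After loess that median was -0.10, and with centred arrays it was -0.22, with 14 lower. TFDP1, the dimer partner of E2F proteins, was at 7.86 in the ALDH-positive and 6.97 in the ALDH-negative fraction. LIN52, a MuvB subunit, was at 6.39 in the ALDH-positive and 6.99 in the ALDH-negative fraction, and LIN54, the subunit that binds the cell cycle homology region, was at 5.78 in the CD133-positive and 6.35 in the CD133-negative fraction.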
